A study of Mus musculus with 6 samples.

Results

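T helper type 2 (Th2) cells lacking NLRP3 were compared with wild-type (WT) Th2 cells after 6 days of culture, using 1 RNA sequencing library of each genotype, 2 of the 6 libraries in the study. NLRP3 is the sensor protein of an inflammasome, and the labels describe no other genetic change. The cells were CD4 T cells taken as naive cells from spleen and lymph nodes of C57/Bl6j mice aged 7 weeks, either WT or NLRP3 KO (written NLRP3KO here). Both cultures received IL-4 at 10 ng/ml and an interferon gamma blocking antibody in wells that carried bound antibodies to CD3 and CD28, and both libraries were made from total RNA depleted of ribosomal RNA. The knockout mice are labelled NLRP3-/-, with no cell type restriction, so the naive cells that entered the culture lacked NLRP3 too. The labels do not say how many mice gave cells or whether they were pooled. The remaining libraries are naive cells of each genotype and cultures of 3 days, and the day 3 pair is given here beside day 6.

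CD4 T cells that meet antigen in the presence of IL-4 signal through STAT6, express the transcription factor GATA3 and become Th2 cells, which secrete the cytokines IL-4, IL-5 and IL-13 and act in allergy and in defence against worms. Dividing T cells use glucose heavily, make their own lipids and assemble many ribosomes, while resting T cells hold these programmes low and express trafficking and survival genes. NLRP3 is best known in myeloid cells, where it activates caspase-1, and the study asks what its loss does in Th2 cells.

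The NLRP3KO day 6 library is shallow, and this sets what can be read from it. An estimated 5589 fragments fell on genes there, against 31209 in WT day 6, a 5.58-fold gap, while the day 3 libraries held 29972 (WT) and 25646 (NLRP3KO). Gene entries above 0 numbered 2777 in NLRP3KO and 6881 in WT. On a transcript of 2 kb, 3 fragments make 12.5 FPKM in NLRP3KO and 2.88 in WT. A gene listed at 0 in NLRP3KO, here or below, is therefore not by itself read as lower in expression. FPKM divides fragments by transcript length and by all mapped fragments of the library. That total was an estimated 129744 in NLRP3KO and 562337 in WT, so most fragments lay outside the genes counted here. The share taken by ribosomal RNA was not computed. The precursor of ribosomal RNA, Rn45s, was listed at 67266 FPKM in NLRP3KO and 53218 in WT. Both day 6 libraries stand apart from the others in sex-linked genes: Xist, the noncoding RNA of the inactive X chromosome, was listed at 0 in both, but at 13.7 (WT) and 17.6 (NLRP3KO) FPKM at day 3 and at 27.1 and 37.8 in naive cells. Of the Y-linked genes, Kdm5d was above 0 only in WT day 6 and Eif2s3y only in NLRP3KO day 6 (14.3 FPKM), among the 6 libraries. The 2 day 6 libraries do not differ from each other in Xist. These sex-linked differences go together with the day of culture. Between days, a difference in donor sex therefore cannot be told apart from culture time.

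The comparison was therefore made on abundant genes, 139 of the 23415 entries with status OK, and on 40 lists of related genes whose fragments were added up. A gene counts as abundant when its mean FPKM over the 4 Th2 libraries, day 3 included, is at least 20, so day 3 values of abundant genes are given as a description and not as independent support. The 139 entries carry 137 symbols, 41 of them encode histones and 36 cytosolic ribosomal proteins. All 139 were above 0 in WT, 11 were listed at 0 in NLRP3KO, and 128 were above 0 in both. FPKM are printed as deposited, with the deposited lower and upper bounds in brackets. Differences are log2(scaled FPKM + 1) in NLRP3KO minus WT, after a scaling that sets the median ratio of the abundant genes (0.517 as deposited) to 1. Since the scale moves every difference, 3 other scalings were run beside it: no scaling, equal totals of fragments on genes, and the median ratio over genes detected in all 6 libraries. A scaling by the abundant genes without histones, added after seeing the data, had a ratio of 0.628, between the main scaling and these. The 3 lower the log2 differences by 0.95, 0.59 and 1.11, so a list is called higher or lower only where its interval kept its side of 1 on all 4 scalings, and a gene only where it stayed at least 2-fold apart with separate bounds on all 4. With 1 library per genotype there is no replicate error and no p-value, and each difference is between these 2 libraries. Less RNA per cell and fewer cells of a kind cannot be told apart in bulk RNA.

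Nlrp3 itself (chr11:59356188-59380458, mm9) was listed at 0 in both day 6 libraries and in both day 3 libraries, and only naive WT was above 0, at 0.0569 FPKM. The floor of 3 fragments was 1.39 FPKM in WT day 6 and 6.03 in NLRP3KO day 6, so its expression was not detectable at this depth in either genotype and the gene does not check the day 6 labels. The cells carried the T cell markers that belong to the label: 12 of 12 were above 0 in WT, with a summed 114 FPKM, and 9 of 12 in NLRP3KO, with 94.1. Cd4 stood at 14.4 and 2.62 FPKM, which are 24 fragments and 1 fragment, and Cd3g, Cd5 and Lck were listed at 0 in NLRP3KO. Every marker of CD8 T cells, B cells, natural killer cells, red blood cells, Th1 cells and Th17 cells was listed at 0 in both libraries. The NLRP3KO floors were high, for example 17.6 FPKM for Cd79a, 31.4 for Nkg7 and 21.8 for Ifng. Absence of these cells cannot be shown at this depth. Of 15 myeloid and antigen presenting markers, 2 were above 0 in WT (summed 19.9 FPKM) and 1 in NLRP3KO (7.17), and of 7 stromal and endothelial markers 1 was above 0 in WT and none in NLRP3KO.

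The Th2 genes by which the culture is usually judged were mostly too scarce to compare. Il4, Il5 and Il13, the cytokines of the lineage, were listed at 0 in both libraries, where the NLRP3KO floors were as high as 52.0, 16.6 and 21.8 FPKM. Gata3, the lineage regulator, had 11 FPKM (6.08 to 15.5) in WT and 5.03 (0 to 12.0) in NLRP3KO, on 19 and 2 fragments, and the bounds overlap. Irf4, a transcription factor induced by T cell receptor signals, had 20.4 in WT and 15.3 in NLRP3KO, on 52 and 9 fragments. Maf, which drives Il4 transcription, was listed at 0 in WT and at 4.41 in NLRP3KO, on 2 fragments. Il24, a cytokine gene of the IL-10 family, was listed at 0 in WT and at 15.9 FPKM in NLRP3KO, also on 2 fragments. Gata3 and Irf4 had overlapping bounds after scaling, and Maf and Il24 rest on too few fragments to compare. As a list, the 29 genes of the Th2 programme held 273 fragments in WT and 79.5 in NLRP3KO, a ratio of 2.45 (95% interval for counting error 1.89 to 3.16) on the main scale and 1.26 (0.977 to 1.64) as deposited. The scaling thus decides whether the programme stands above 1. Within it, Il2ra (the IL-2 receptor alpha chain) had 23.4 and 21.6 FPKM in WT and NLRP3KO, and Il4ra (the IL-4 receptor chain) had 12.2 and 20.3.

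Among the 139 abundant genes, 26 stood 2-fold or more above WT in NLRP3KO and 27 stood 2-fold or more below it. Those shares, 18.7% and 19.4%, lie under the background of the 5302 genes that reached an FPKM of 1 in either day 6 library, of which 32% were at least 2-fold higher and 36.9% at least 2-fold lower. Much of that background consists of genes listed at 0 in a library: 2632 of the 5302 (49.6%) were at 0 in NLRP3KO and 504 (9.51%) in WT. Requiring in addition that the deposited bounds, scaled alike, lie apart left 0.641% of the 5302 higher and 10.9% lower, and 5 and 9 of the abundant genes. Except for 314 entries, a gene listed at 0 in NLRP3KO has both deposited bounds at 0. Its bounds then lie apart wherever the WT lower bound is above 0, so for such genes this step measures no separation. When the gene also had to be above 0 in both libraries, 0.604% were higher and 0.0189% lower, and 5 and 1 of the abundant genes. That condition drops genes listed at 0 in the shallow NLRP3KO library. Of the 5302, 579 were lower with bounds apart and 578 of those were listed at 0 in 1 library, against 2 of 34 higher ones. The excess of higher genes is thus partly set by the condition. Of the 6 abundant genes that met it, Ecm1, Igfbp4, Malat1 and Scd2 were higher on all 4 scalings and Hsp90ab1 lower, while Rpl13a depended on the scaling.

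**Figure D1:**
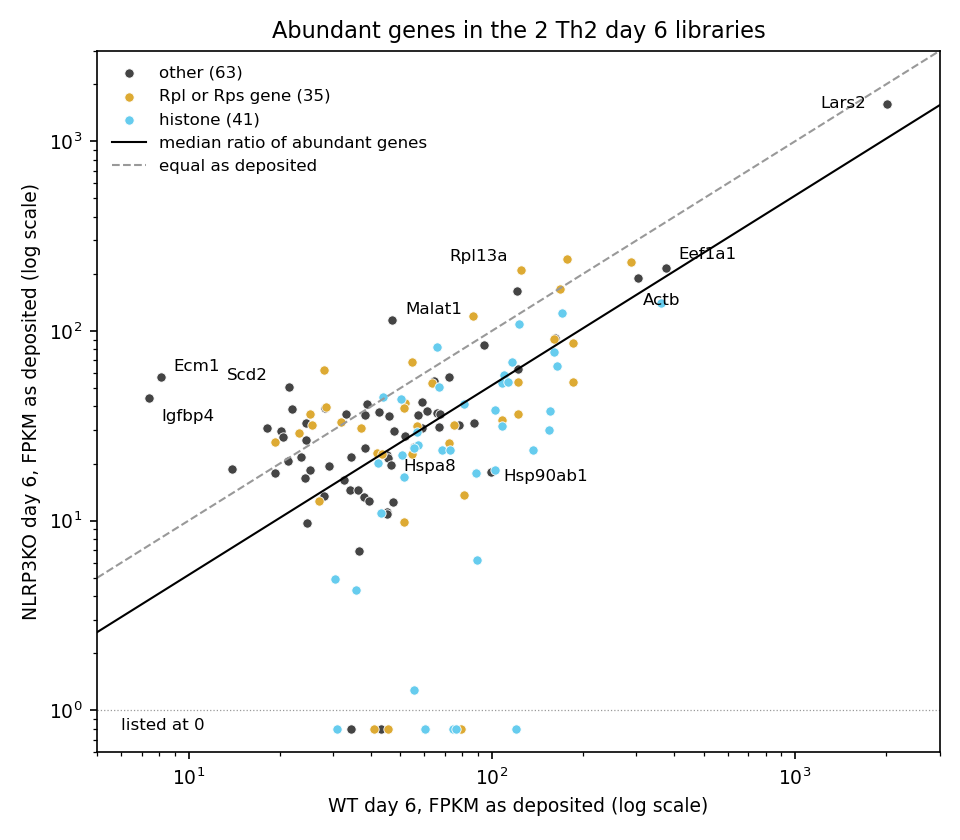
Deposited FPKM of the 139 abundant genes in WT day 6 (x axis) and NLRP3KO day 6 (y axis), both log scales, 1 point per gene and 1 library per axis, coloured by gene class. The solid line is the median ratio of 0.517 and the dashed line equality as deposited. Ecm1, Igfbp4, Scd2 and Malat1 lie above both lines, Hsp90ab1 lies below both, and the 11 genes listed at 0 in NLRP3KO lie on the bottom edge.

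Ecm1 (chr3:95538071-95543492), a secreted matrix protein needed for Th2 cells to leave lymph nodes, had 8.09 FPKM (1.01 to 15.2) in WT and 57.3 (26.4 to 92.5) in NLRP3KO. It rested on 8 and 13 fragments, and the log2 difference was 3.56 (2.53 with the 6-library scaling). The day 3 pair, made from other libraries, had 6.62 and 58.8 FPKM. Ecm1 passed the abundance limit only through its 2 high NLRP3KO libraries, so this pattern over the days is partly set by the limit. Igfbp4 (chr11:98902574-98913957), which binds insulin-like growth factors and is abundant in naive T cells, had 7.39 FPKM (2.58 to 12.1) in WT and 44.2 (18.7 to 67.2) in NLRP3KO, a log2 difference of 3.31. At day 3 it had 12.1 and 27.4, and in naive cells 96.1 and 183, and it too passed the limit only through its NLRP3KO libraries.

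Scd2 (chr19:44368166-44381352), a desaturase that makes monounsaturated fatty acids, had 21.4 FPKM (16.1 to 26.8) in WT and 50.9 (34.9 to 68.3) in NLRP3KO, on 60.6 and 33.2 fragments. The log2 difference was 2.13, or 1.05 with the 6-library scaling, and the day 3 values were 24.3 and 57.1. Malat1 (chr19:5795690-5802671), a nuclear noncoding RNA, had 47.0 FPKM (40 to 54) in WT and 114 (91.6 to 136) in NLRP3KO, on 181 and 101 fragments, a log2 difference of 2.19. At day 3 Malat1 stood at 54.0 and 115. For both genes the day 3 value lay within the day 6 bounds of the same genotype.

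Rpl13a, a ribosomal protein gene with processed copies that can share its reads, had 124 FPKM (92.4 to 157) in WT and 211 (123 to 290) in NLRP3KO. Its log2 difference was 1.70 on the main scale and 0.59 with the 6-library scaling, and at day 3 it had 122 and 112. Lars2, the mitochondrial leucyl-tRNA synthetase gene, had the highest listed FPKM of the 139, at 2004 in WT and 1579 in NLRP3KO. In naive cells it was listed at 1949 and 999. Whether all fragments counted for Lars2 come from its own transcript was not tested. Lars2 alone held 4224 of the 8356 WT fragments on abundant genes and 768 of the 1462 in NLRP3KO. Its difference was 0.61 on the main scale and -0.50 with the 6-library scaling, so its direction is set by the scaling.

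Hsp90ab1 (chr17:45704727-45710210) encodes the constitutive cytosolic HSP90 chaperone. It had 99.4 FPKM (80.9 to 118) in WT and 18.0 (3.07 to 30.7) in NLRP3KO, on 121 and 5.06 fragments, a log2 difference of -1.48 (-2.56 with the 6-library scaling). At day 3 it had 113 and 71.0 FPKM, so the NLRP3KO day 6 library is the low one among the 4 Th2 libraries. Other abundant genes stayed near the median ratio: Actb, the main cytoskeletal actin, had 304 FPKM in WT and 190 in NLRP3KO, and Eef1a1, a translation elongation factor, had 376 and 216. Hspa8, the constitutive HSP70, had 46.6 and 19.7 FPKM and bounds that overlap once scaled.

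**Figure D2:**
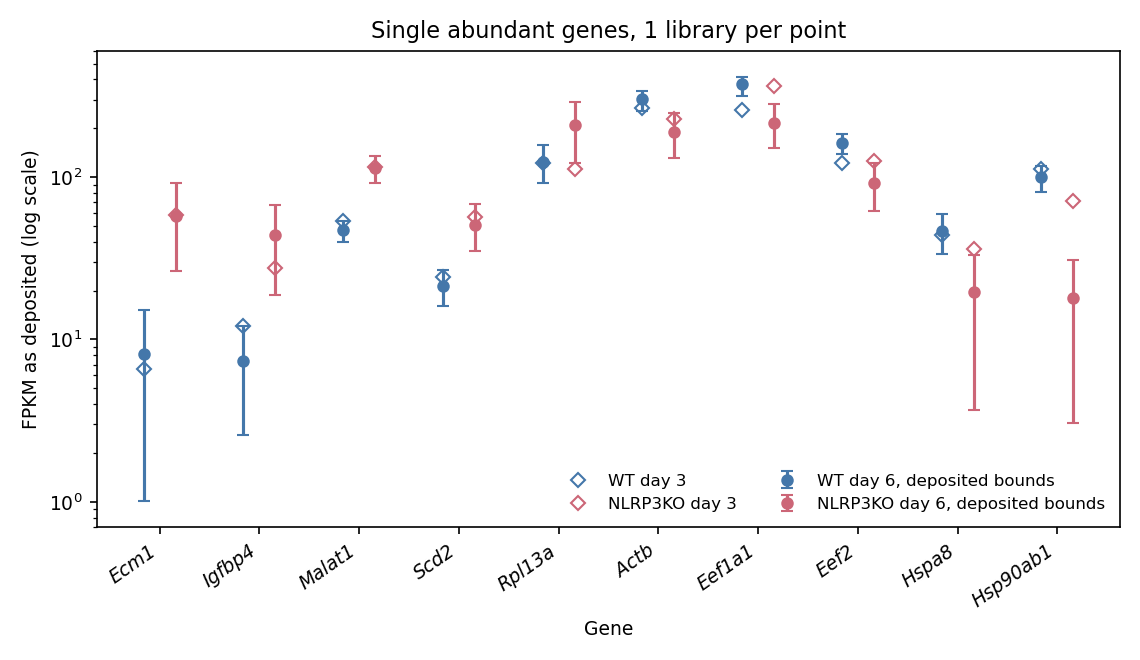
Deposited FPKM (log scale) of 10 abundant genes in WT (blue) and NLRP3KO (red). Filled circles are the day 6 libraries with the deposited bounds as bars, open diamonds the day 3 libraries without bounds, 1 library per point. For Ecm1, Igfbp4, Malat1, Scd2 and Hsp90ab1 the day 6 bounds lie apart on all 4 scalings, while those of Actb, Eef1a1, Eef2 and Hspa8 overlap after the main scaling, which is not drawn, and the NLRP3KO day 6 value of Hsp90ab1, 18.0, is the lowest of its 4.

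Of the 11 abundant genes listed at 0 in NLRP3KO, 3 had a floor of 3 fragments under the WT value. They were Rps3a, a ribosomal protein gene (41.0 FPKM in WT, floor 29.0), Ppia, the cyclophilin A gene (43.3, floor 39.1), and Hist1h2bg, a histone H2B gene (74.6, floor 49.2). Rps3a stood at 60.2 and 27.7 FPKM in the day 3 WT and NLRP3KO libraries, and Ppia at 22.4 and 21.4. All 3 have near-identical copies in the genome, which makes their values uncertain, and an exact 0 in such a table can be a failed estimate, so no fold is given. Of the 9 abundant genes with bounds apart in the lower direction, 8 were listed at 0 in NLRP3KO. Their NLRP3KO bounds are both 0, so their bounds lie apart by construction.

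Summing fragments over a gene list uses every member, kept or not, and lowers the counting error. On the main scale all usable genes together had a ratio of 1.5 (1.46 to 1.54), so the median abundant gene had a lower ratio than all genes pooled. The lists are called against 1 only. A list above 1 can thus have a ratio under that of all genes, as the cytosolic ribosomal proteins do at 1.31. The scaling to equal totals of fragments on genes sets the ratio of all genes to 1. As deposited the ratio over all genes was 0.776. Of the 40 lists, 18 had an interval above 1 and 3 below 1 on the main scale, against 9 above and 19 below as deposited. On all 4 scalings 9 lists stayed above 1, 3 stayed below, and 28 did neither. The intervals cover counting error in 2 libraries and are not adjusted for the number of lists. Some genes sit in several lists (Ecm1, Il2ra, Btg2 and Pdk1 among them), so the lists are not independent.

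**Figure D3:**
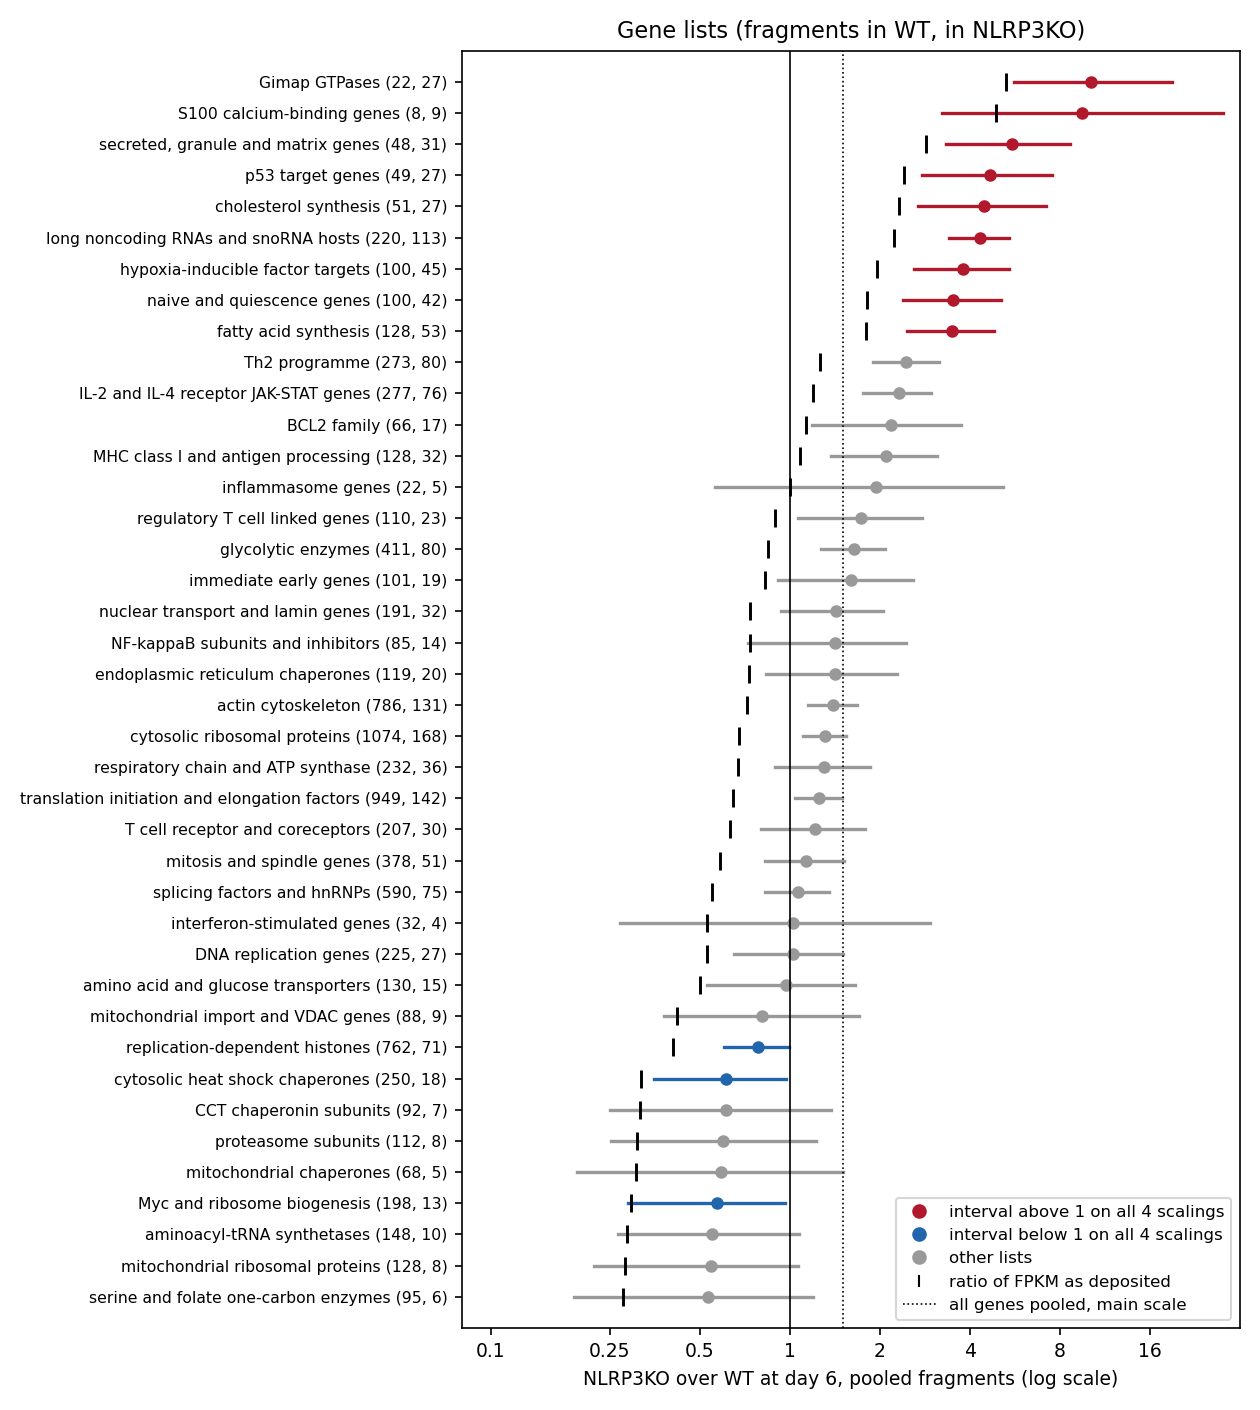
Ratio of pooled fragments, NLRP3KO over WT at day 6 after the main scaling (log scale), for 40 gene lists, with 95% intervals for counting error. Fragments in WT and NLRP3KO are in brackets, black ticks give the ratio as deposited, and the dotted line is the ratio of all genes, 1.5. Red lists stay above 1 and blue lists below 1 on all 4 scalings, from the Gimap GTPases at 10.2 to Myc and ribosome biogenesis at 0.57.

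The Gimap GTPases had the largest ratio. These small GTPases support lymphocyte survival, and their 8 genes lie side by side on chromosome 6 between Gimap8 (which starts at 48597233) and Gimap3 (which ends at 48720850). The list held 22.1 fragments in WT and 26.9 in NLRP3KO although the NLRP3KO library is the shallower, a ratio of 10.2 (5.64 to 19), or 5.28 as deposited. Gimap3 had 5.32 FPKM (1.66 to 9.12) in WT and 30.9 (10.8 to 50.3) in NLRP3KO, and Gimap6 had 3.63 (0 to 6.62) and 31.6 (9.56 to 52.6). Gimap4 had 1.38 and 19.1, and Gimap9 had 2.86 and 18.7. Those 4 genes were thus above 18 FPKM in NLRP3KO and under 6 in WT. Gimap1 had 3.92 and 17.1 FPKM, Gimap7 had 3.15 and 6.87, and Gimap5 had 0.986 and 4.29, while Gimap8 was nearly level as deposited at 2.53 and 2.20. Bounds lay apart only for Gimap3 and Gimap6. Without Gimap3, the member with the most fragments, the ratio was 9.84 (4.85 to 20.7).

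The Gimap genes are a mark of resting T cells, and the naive libraries of this study, made from purified mRNA, list Gimap3 at 224 FPKM in WT and 339 in NLRP3KO. At day 3 Gimap3 had 14.1 and 18.9, and the list had a ratio of 1.52 (0.981 to 2.43). Whether day 3 and day 6 differ was not tested. The naive and quiescence list, which holds transcription factors and homing receptors of resting T cells, had 100 fragments in WT and 42.0 in NLRP3KO, a ratio of 3.52 (2.40 to 5.10). Its members Tcf7 and Lef1, partner transcription factors, had 1.71 and 7.42 FPKM (Tcf7) and 7.68 and 3.34 (Lef1). Ccr7, a lymph node homing receptor, had 2.91 and 8.44 FPKM. S1pr1, the receptor by which T cells leave lymph nodes, had 3.08 in WT and was listed at 0 in NLRP3KO, which is not read as a difference at this depth. As deposited, Tcf7 and Lef1 lay on opposite sides, so the listed values were not uniform. Igfbp4, described above, and Satb1, a chromatin organizer (6.79 and 8.96 FPKM), gave the most fragments. Without Satb1 the ratio was 3.75. Igfbp4 held more fragments in NLRP3KO than in WT, although the NLRP3KO library is the shallower. The ratio without Igfbp4 was not computed. The place of this list above 1 on all 4 scalings was thus not tested without Igfbp4 and may depend on it.

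Genes of lipid synthesis stood higher in NLRP3KO on all 4 scalings. Cholesterol synthesis had 51.2 fragments in WT and 27.3 in NLRP3KO, a ratio of 4.47 (2.68 to 7.21), and fatty acid synthesis 128 and 52.9, a ratio of 3.47 (2.47 to 4.82). Srebf2, the transcription factor that controls cholesterol synthesis, had 4.42 FPKM in WT and 10.5 in NLRP3KO, Sc4mol, a sterol methyl oxidase, 5.28 and 13.8, and Fdps, the farnesyl diphosphate synthase, 6.44 and 7.02. On the fatty acid side, Srebf1, the related factor, had 1.28 and 7.44 FPKM, and Scd1, a desaturase like Scd2, had 0.757 and 6.57. Fasn, the fatty acid synthase, had 4.99 in WT and 3.15 in NLRP3KO, and Acly, which makes cytosolic acetyl-CoA, had 5.43 and 7.26. Fasn was thus not among the members that were higher as deposited. Without Scd2 the fatty acid ratio was 2.46 (1.44 to 4.18) on the main scale, and its interval as deposited reached down to 0.744, so that list stands apart on every scaling only with Scd2 in it. Without Srebf2, cholesterol synthesis still had a ratio of 4.44 (2.47 to 7.64).

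The hypoxia-inducible factor targets, genes for glucose uptake and adaptation to low oxygen, held 100 fragments in WT and 45.2 in NLRP3KO, a ratio of 3.78 (2.59 to 5.42). Hif1a, the oxygen-regulated factor itself, had 4.62 FPKM in WT and 15 in NLRP3KO, and Slc2a3, a glucose transporter, had 6.52 and 18.2, both with bounds apart. Ero1l, an oxidase of the endoplasmic reticulum, had 4.57 and 12.6, and Slc2a1, another glucose transporter, 6.58 and 12.7. Ddit4, an inhibitor of mTORC1, had 9.21 and 10.0. Of the 14 members with an FPKM of at least 1 in either library, 10 were at least 2-fold higher and 2 lower, where 32% and 36.9% are the background shares. Egln1 and Kdm3a, an oxygen sensor and a histone demethylase, had 5.78 and 2.28 FPKM in WT and were listed at 0 in NLRP3KO. The glycolytic enzymes, many of which are targets of the same factor, had 411 and 80.1 fragments, a ratio of 1.63 (1.27 to 2.08) that turned to 0.844 as deposited.

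The p53 target genes, which act in cell cycle arrest and cell death, had 49.2 fragments in WT and 27.4 in NLRP3KO, a ratio of 4.67 (2.78 to 7.54). Ccng1, a cyclin induced by p53, had 6.38 FPKM and 16.2, and Cdkn1a, the cell cycle inhibitor p21, had 7.03 and 13.1. Plk2, a kinase, had 1.34 and 8.71, while Bax, which permeabilizes mitochondria, and Trp53 itself had 7.32 and 4.36 in WT and were listed at 0 in NLRP3KO. No member had bounds that lay apart, so the list's ratio rests on many small values. The secreted, granule and matrix genes had 47.6 and 31.3 fragments, a ratio of 5.52 (3.33 to 8.68), in which Ecm1 weighed most: without it the ratio was 3.87 (2.04 to 6.73), and its interval with the 6-library scaling then reached 0.941. Tgm2, a transglutaminase, had 1.57 and 9.06 FPKM with bounds apart, and Srgn, the proteoglycan of granules, had 29.0 and 19.5.

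The long noncoding RNAs had a ratio of 4.33 (3.40 to 5.43), almost all from Malat1. Neat1, which builds nuclear paraspeckles and lies near Malat1 on chromosome 19, had 4.1 FPKM in WT and 17.8 in NLRP3KO, with bounds apart. Of the hosts of small nucleolar RNAs in the same list, Snhg1, Snhg5, Snhg8 and Snhg12 had between 5.71 and 10.6 FPKM in WT and were listed at 0 in NLRP3KO, where their floors were 12.3 FPKM or more, so they could not be compared at this depth. Without Malat1 the ratio was 2.66 (1.23 to 5.03) on the main scale, with an interval that reached 0.636 as deposited. The S100 calcium-binding genes had a ratio of 9.46 (3.23 to 28.1) on 8 and 9 fragments, from few members. S100a6 and S100a13 were listed at 0 in WT and at 54.0 and 67.9 FPKM in NLRP3KO, on 4.02 and 5.02 fragments, while S100a1, S100a10 and S100pbp (a binding partner, not an S100 protein) were above 0 in WT, each under its NLRP3KO floor, and listed at 0 in NLRP3KO. Without S100a13 the interval of the S100 ratio (0.924 to 15.6) held 1.

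**Figure D4:**
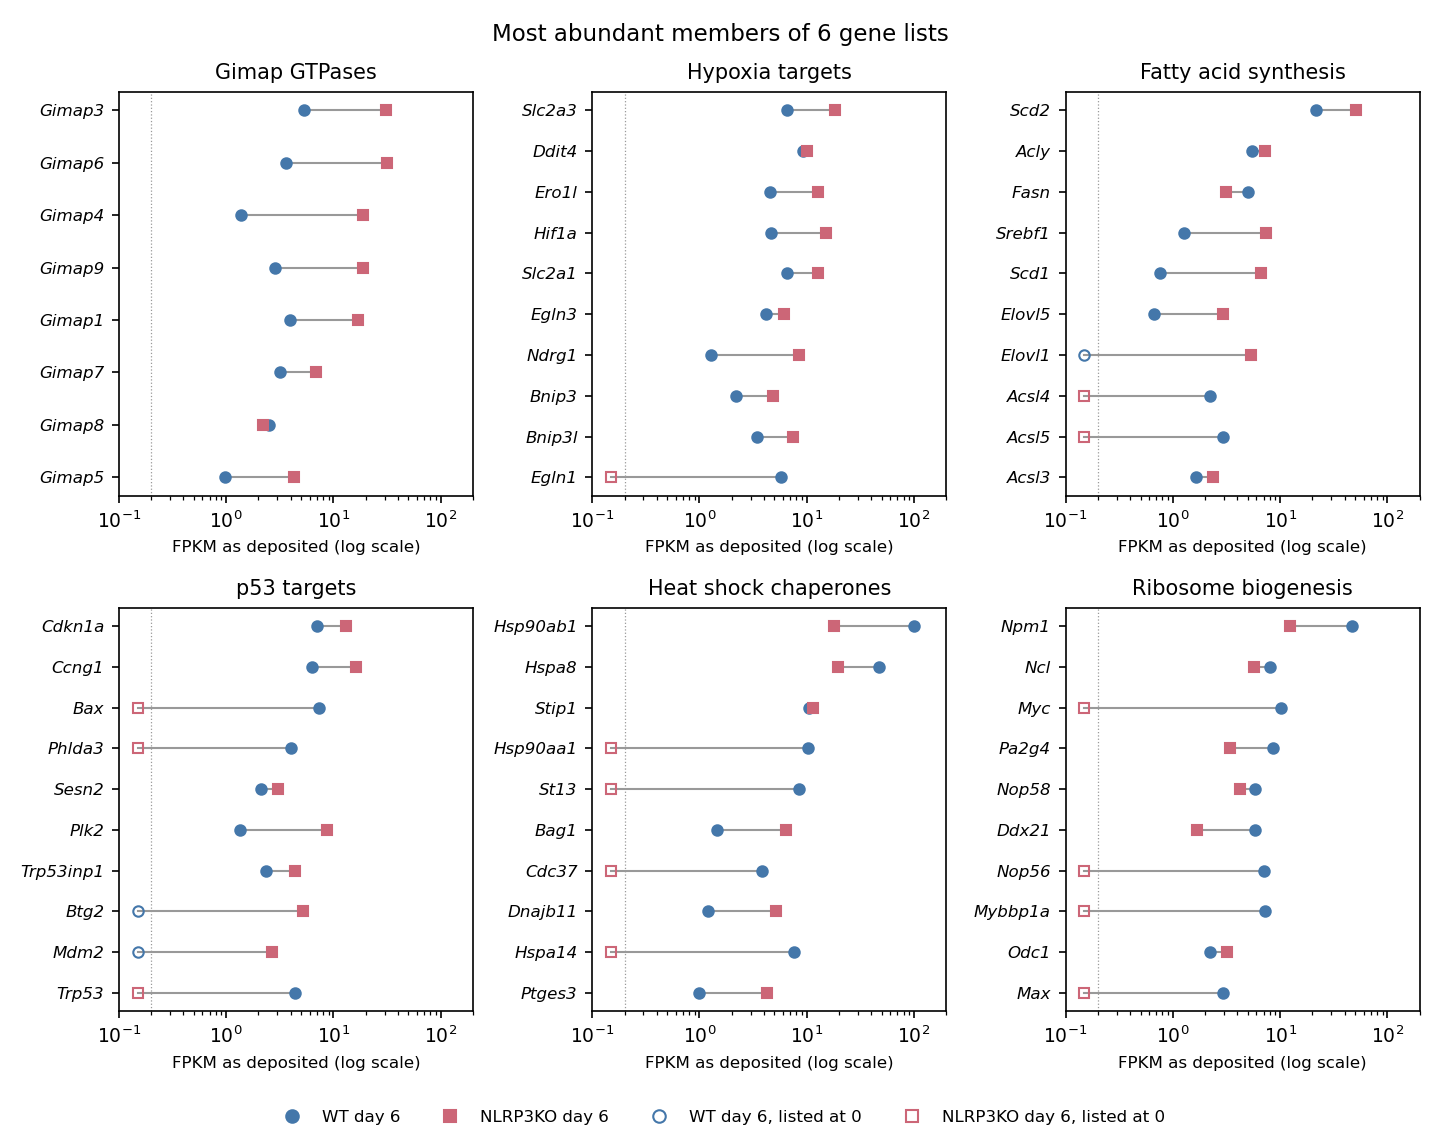
Deposited FPKM (log scale) of the 10 most abundant members above 0 in either day 6 library, for 6 gene lists (8 for the Gimap GTPases). Blue circles are WT, red squares NLRP3KO, and open symbols left of the dotted line are genes listed at 0. The squares lie right of the circles for 7 of the 8 Gimap genes, and left of them for Hsp90ab1, Hspa8, Npm1 and Ncl.

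The lists below 1 on all 4 scalings hold genes of ribosome assembly, protein folding and chromatin. Myc and ribosome biogenesis had 198 fragments in WT and 13.4 in NLRP3KO, a ratio of 0.57 (0.29 to 0.96) on the main scale and 0.29 as deposited. Myc, the transcription factor that drives growth, had 10.2 FPKM in WT (7.02 fragments) and was listed at 0 in NLRP3KO. Npm1, a nucleolar chaperone, had 47.2 and 12.5, Ncl, the nucleolin gene, 8.11 and 5.70, and Ddx21, a nucleolar helicase, 5.80 and 1.68. The log2 difference of Ncl was 0.39 on the main scale and -0.44 as deposited, so its direction is set by the scaling. Mybbp1a and Nop56, also nucleolar, had 7.15 and 7.09 in WT and were listed at 0 in NLRP3KO. Of 25 members with an FPKM of at least 1 in either library, 2 were at least 2-fold higher and 16 lower, 18 being listed at 0 in NLRP3KO. Over all kept genes the shares are 32% higher, 36.9% lower and 49.6% at 0. Without Ncl, which has the most fragments, the ratio was 0.39 (0.14 to 0.77).

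The cytosolic heat shock chaperones had 250 and 18.3 fragments, a ratio of 0.61 (0.35 to 0.97). Hsp90ab1 gave 121 of the 250 WT fragments, and without it the ratio was 0.86 with an interval (0.44 to 1.5) that holds 1, so on the main scale this list turns on Hsp90ab1. Hsp90aa1, the inducible HSP90, had 10.2 FPKM in WT and was listed at 0 in NLRP3KO, and Stip1, an HSP90 cochaperone, had 10.5 and 11.4. The replication-dependent histones had 762 and 71.3 fragments, a ratio of 0.785 (0.604 to 0.997) and 0.41 as deposited. With transcript lengths taken from the bounds at no more than 5 multiples the main interval, 0.614 to 1.01, held 1. Their transcripts lack poly(A) tails and are made in S phase, and their near-identical genes share reads. Of the 41 abundant histone entries, 16 were at least 2-fold lower and 1, Hist1h3d (65.7 and 82.2 FPKM), higher, beside 19.4% and 18.7% of all abundant genes. The DNA replication genes had a ratio of 1.02 (0.65 to 1.5) and the mitosis and spindle genes 1.13 (0.83 to 1.52) on the main scale, both with intervals below 1 as deposited. Whether the histone list differs from these lists was not tested.

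The 28 remaining lists depended on the scaling or had intervals that held 1. The IL-2 and IL-4 receptor JAK-STAT genes stood at 2.31 (1.76 to 2.97) on the main scale and 1.19 (0.91 to 1.54) as deposited, with Pim1, a kinase induced by STAT5, at 19.8 FPKM in WT and 19.2 in NLRP3KO. MHC class I and antigen processing stood at 2.09, with B2m, the light chain of MHC class I, at 64.4 and 54.2 and the heavy chains H2-K1 at 21.3 and 20.6 and H2-D1 at 38.3 and 24.3. These 3 genes had close to equal or lower FPKM in NLRP3KO as deposited. The T cell receptor and coreceptor genes had a ratio of 1.22 (0.80 to 1.79), with Cd3e at 11 and 17.9 FPKM and Thy1 at 7.81 and 14.6. Cytosolic ribosomal proteins had 1.31 (1.11 to 1.54) on 1074 and 168 fragments, and translation factors 1.25 (1.04 to 1.5), and both lay on the other side of 1 as deposited, at 0.678 and 0.647. The regulatory T cell linked genes had 1.73 (1.07 to 2.77) and 0.894 as deposited, and Lrrc32, a receptor for latent TGF-beta in that list, had 0.484 and 8.4 FPKM on 1 and 4 fragments. Folr4 and Tnfrsf4, surface receptors that are more abundant in that list, had 38 and 13.3 FPKM and 26.3 and 15.3.

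Within the large housekeeping lists single genes differed in side. Rps20 had 177 FPKM in WT and 239 in NLRP3KO, Rps9 168 and 167, and Rpl41 288 and 230. Of the glycolytic enzymes, Aldoa had 94.1 and 84.8, Pkm2, the pyruvate kinase, 72.2 and 57.4, and Ldha, the lactate dehydrogenase, 67.3 and 36.6. In the actin cytoskeleton list, with a ratio of 1.4 (1.15 to 1.68) and 0.722 as deposited, Tmsb4x, which holds actin monomers, had 121 and 162 FPKM and Pfn1, the profilin, 78 and 32. The interferon-stimulated genes had a ratio of 1.02 (0.27 to 2.96) on 31.8 and 3.9 fragments, too few to place the list on either side. The immediate early genes, which respond within minutes to T cell receptor signals, had 1.6 (0.91 to 2.59), with Junb at 17.8 and 9.11 FPKM.

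Mitochondrial ribosomal proteins (0.55, with 128 and 8.31 fragments), aminoacyl-tRNA synthetases (0.55), serine and folate one-carbon enzymes (0.53), mitochondrial chaperones (0.59), proteasome subunits (0.60) and CCT chaperonin subunits (0.61) had ratios near those of the lists below 1. Their intervals held 1 on the main scale and lay below 1 as deposited. Cct2, a subunit of the chaperonin that folds actin and tubulin, had 28.8 FPKM in WT and 4.25 in NLRP3KO, Hspa9, the mitochondrial HSP70, 15.9 and 2.66, and Gars, the glycyl-tRNA synthetase, 11.9 and 3.44. Shmt2, which feeds serine into folate metabolism, had 16.5 in WT and was listed at 0 in NLRP3KO, and Psmb1, a proteasome subunit, had 15.9 and 8.68. Other members were higher as deposited: Vars, the valyl-tRNA synthetase, had 6.1 and 9.45 FPKM, Psmd8, a subunit of the proteasome cap, 3.89 and 16.9, and Lonp1, a mitochondrial protease, 6.93 and 8.21. Without Vars the synthetase ratio was 0.295 (0.0999 to 0.748). The inflammasome genes were close to the limit of what could be seen: 21.6 fragments in WT and 5 in NLRP3KO gave a ratio of 1.94 with an interval of 0.56 to 5.16. Pycard, the adaptor that NLRP3 recruits, had 2.67 FPKM in WT and 3.88 in NLRP3KO, and Txnip, a binding partner of thioredoxin, 4.01 and 8.72.

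The same lists were set beside the day 3 pair, which shares no library with day 6 and differs from it in Xist, as given above. The lists were chosen with earlier results of these data known. A list on the same side of 1 at both days is therefore a description and not independent support. On all 4 scalings 9 lists had intervals on the same side of 1 at both days: hypoxia-inducible factor targets, cholesterol synthesis, fatty acid synthesis, p53 targets, secreted genes and long noncoding RNAs above 1, and Myc and ribosome biogenesis, heat shock chaperones and histones below. The hypoxia targets had 3.72 (2.93 to 4.72) at day 3 beside 3.78 at day 6, the secreted genes 5.52 (3.85 to 7.94) beside 5.52, and cholesterol synthesis 1.68 (1.23 to 2.33) beside 4.47. Myc and ribosome biogenesis had 0.43 (0.32 to 0.57) beside 0.57, and the histones 0.52 (0.44 to 0.61) beside 0.78. The Gimap, S100 and naive lists stood above 1 at day 6 on all 4 scalings but had intervals that held 1 at day 3. For the S100 genes the day 3 ratio was 2.70 (0.93 to 8.67) and for the naive list 1.26 (0.98 to 1.63). No list lay on opposite sides of 1 at the 2 days on all 4 scalings.

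**Figure D5:**
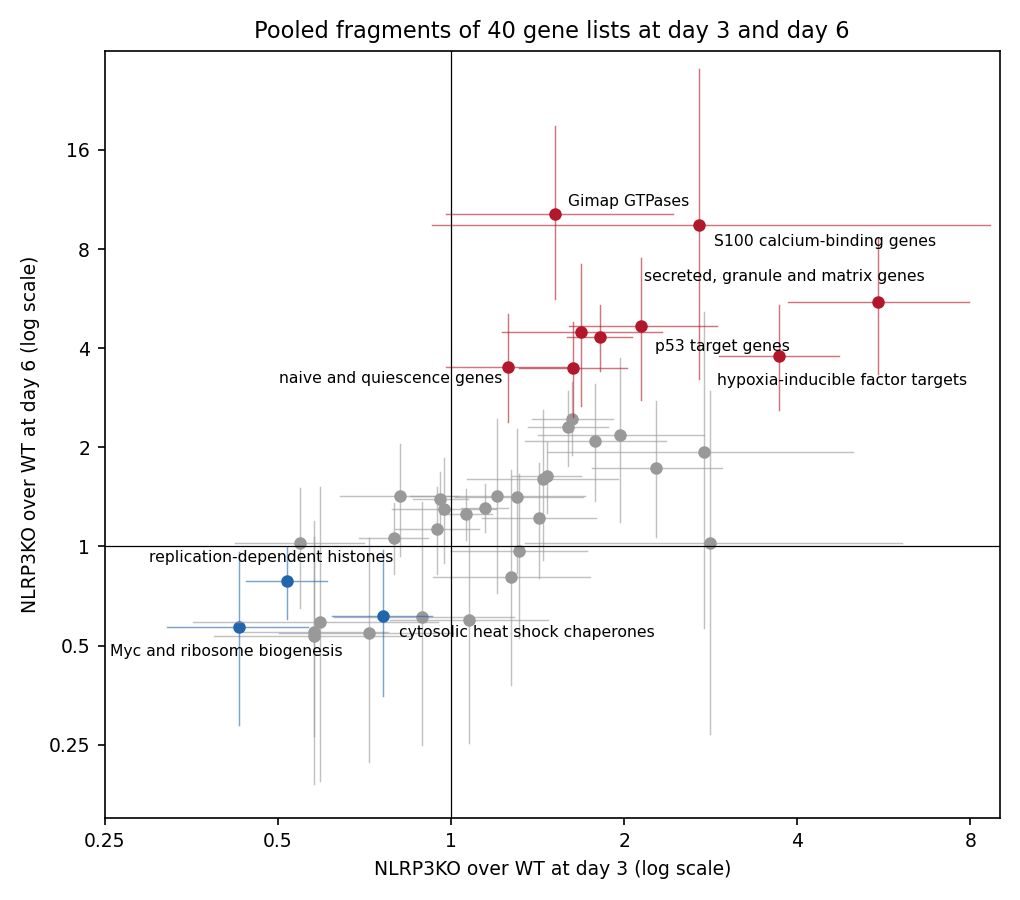
Ratio of pooled fragments, NLRP3KO over WT, at day 3 (x axis) and day 6 (y axis) for 40 gene lists, both log scales, with the main scaling of each day and 95% intervals for counting error as lines. Red and blue points are the lists above or below 1 on all 4 scalings at day 6, grey points the others. The Gimap GTPases lie at 1.52 and 10.2, the hypoxia-inducible factor targets at 3.72 and 3.78.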

How the data were processed

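Total RNA depleted of ribosomal RNA was sequenced on a MiSeq, per the labels' protocols. The authors deposited 1 table of FPKM with bounds and a status per library, per the file headers. Per the submitters' processing notes the tools were TopHat and Cufflinks and the build mm9. Tool versions and annotation: not given in the sources used here. Of 23700 entries, 285 without status OK were left out. No count test was used.

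Each library's total was recovered from the bounds (562337 fragments for WT day 6, 129744 for NLRP3KO day 6). Fragments per gene are estimates from FPKM and transcript length. The length came from the bounds where they gave whole fragments (133 of 139 abundant genes), and otherwise from reference transcripts of a later build less the mean fragment. This rule was chosen after ratios under several rules were seen. Ratios of pooled fragments have exact (Clopper-Pearson) 95% intervals for counting error only, since PCR copies are not independent molecules. Models of up to 300 bases, small RNAs, Rn45s and receptor segments were left out. The pseudocount was 1, the fold 2. Scaling, abundance limit, pseudocount, lengths and members were varied.

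The rule for named genes took the Th2 cytokine genes (Il4, Il5, Il13), Nlrp3, Maf, Irf4 and Gata3, abundant genes with bounds apart and above 0 in both libraries (15 at most in each direction, which gave 6 and 1), abundant genes at 0 whose floor of 3 fragments lies under the other value, and the 3 most abundant members of each list. It also took 9 genes from an earlier account of these data: Ecm1, Lrrc32, S100a6, S100a13, Il24, Igfbp4, Gimap6, Malat1 and Hsp90ab1. Further list members were named after their values were seen, and some are not reported here. The comparison, lists and rules were chosen with earlier results of these data known. The computation was tested on simulated data and used Python 3.11.15, numpy 2.4.6, pandas 2.3.3 and scipy 1.17.1.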

Additional observations from a re-analysis of the deposited data

How the results depend on the processing

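The depth of the NLRP3KO day 6 library and the choice of scaling limit these results most. No paired analysis was possible because the 2 day 6 libraries form a single pair, and pairing genotypes across the stages was not used here. Against 26 abundant genes at least 2-fold higher and 27 lower on the main scale, there were 5 and 63 as deposited, 4 and 75 with the 6-library scaling, and 8 and 41 with equal fragment totals. An abundance limit of 10 FPKM gave 85 and 52, a limit of 50 gave 7 and 7, and an FPKM of at least 1 in either day 6 library gave 1699 and 1954. A limit of 30 fragments over both libraries, added after seeing the data, gave 12 and 7, and scaling by abundant genes without histones, also added then, 19 and 32. Of genes with bounds apart and above 0 in both (5 higher, 1 lower), the lower ones numbered 12 as deposited, 19 with the 6-library scaling and 5 with equal totals, and the higher ones 12, 2 and 32 with the limits of 10, 50 and 1. The limits alter which genes enter. Lists above and below 1 (18 and 3) numbered 9 and 19 as deposited, 9 and 21 with the 6-library scaling, 11 and 10 with equal totals, and 8 above with abundant members only, where 17 lists could be formed. Of the 18 lists above 1 on the main scale, those whose ratio crossed to below 1 were the cytosolic ribosomal proteins (0.678 as deposited, 0.606 with the 6-library scaling, 0.873 with equal totals), translation factors (0.647, 0.578 and 0.833) and actin cytoskeleton (0.722, 0.645 and 0.930). The regulatory T cell linked genes (0.894 and 0.7999) and the glycolytic enzymes (0.844 and 0.755) crossed it with the first 2 of these, and MHC class I (0.966) only with the 6-library scaling. The 3 other rules for transcript length, added after seeing the data, left 17 or 18 lists above 1 and 2 or 4 below, with the histone interval holding 1 under the rule of at most 5 multiples. A pseudocount of 0.1 gave 26 and 28 abundant genes, and a pseudocount of 5 gave 23 and 25.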
